A study of Homo sapiens and Mus musculus with 16 samples.

Results

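Accessible chromatin was compared between a human and a mouse model of pancreatic ductal adenocarcinoma, gene by gene. The human cells were HPAF-II, an established pancreatic adenocarcinoma line, carrying the CRISPR-Cas9 control treatment and an intact HNF4G gene. The mouse cells were an untreated cell line from a primary tumor of the KPC mouse, a model in which mutant alleles, Trp53 among them, act in the pancreas and tumors arise in place. Genes were taken where the same symbol, ignoring case, named 1 protein-coding gene in each annotation, which gave 15725 of 20020 human and 21923 mouse protein-coding symbols. Orthology was not checked, and some pairs, which may include KRT33A, NXPE2, TDRD9 and DDT, need not be 1-to-1 orthologs. Each gene was called open in a list where at least 1 accessible region lay within 1 kb of one of its annotated transcription start sites, and closed where none did. Both groups had 4 replicates, and each group was represented by 1 region list standing for all 4, so that values per replicate were not analysed here and no difference could be set against the spread between replicates. Intervals are Wilson 95% intervals over genes and cover counting error only. Lists from HNF4G-KO HPAF-II cells and from a KPC liver mets cell line, 4 replicates each, were read at the same genes.

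ATAC-seq uses a transposase that inserts adapters where DNA is not wrapped in nucleosomes, so accessible promoters and enhancers collect reads. Promoters of genes that most cells use often lie in CpG islands and are open in most tissues, whereas distal enhancers and CpG-poor promoters tend to be open in particular cell types. The pancreas is built from endoderm under factors such as PDX1, SOX9, FOXA1, FOXA2, GATA4 and GATA6, and ductal adenocarcinoma keeps part of this program, most visibly in tumors of the classical subtype.

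Each species is represented by 1 cell line, both with the genotype WT in the labels, and the labels name different media for them (MEM for HPAF-II and DMEM for KPC cells), whereas the methods of the study give DMEM for both. Species, line and list size differ together and cannot be told apart, and neither can the medium if the labels hold. The HPAF-II control list held 118107 regions (median width 462 bp) and the KPC primary tumor list 68074 (516 bp). Human genes had a median of 6 annotated start sites and mouse genes 4. The scale of the deposited score is not stated, so each region was given its score percentile within its own list, from 0 for the weakest to 100 for the strongest, and a promoter is described by its strongest region. The epithelial character of these cancer cells was checked at KRT8, KRT18, KRT19, EPCAM and CDH1, which encode keratins and adhesion molecules of simple epithelium. All 5 were open in both species, as were 66.8% of all genes, so that this state alone does not set them apart. EPCAM was at percentile 94.5 in HPAF-II and 16.1 in KPC, CDH1 at 74.6 and 30.4, KRT8 at 87.8 and 31.7, KRT18 at 54.2 and 29.7, and KRT19 at 57.5 and 58.1. The median over all open genes was 84.97 in HPAF-II and 74.4 in KPC. EPCAM and KRT8 lay above it in HPAF-II, and all 5 lay below it in KPC.

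Promoter sequence shows the kinds of gene involved. The 250 bases before the start are given for 3 genes in both species and for a 4th in mouse, read 5′ to 3′ on the strand of the gene, with every CpG dinucleotide in capitals. HNF4A, a nuclear receptor of endoderm, was open in both species and has few CpGs.
HNF4A, human, hg38 chr20:44355449-44355698, plus strand: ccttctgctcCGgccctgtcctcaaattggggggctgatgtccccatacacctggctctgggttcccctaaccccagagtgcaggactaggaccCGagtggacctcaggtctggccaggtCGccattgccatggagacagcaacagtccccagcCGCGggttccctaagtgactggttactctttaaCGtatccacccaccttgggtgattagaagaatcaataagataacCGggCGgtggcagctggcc
Hnf4a, mouse, mm10 chr2:163506558-163506807, plus strand: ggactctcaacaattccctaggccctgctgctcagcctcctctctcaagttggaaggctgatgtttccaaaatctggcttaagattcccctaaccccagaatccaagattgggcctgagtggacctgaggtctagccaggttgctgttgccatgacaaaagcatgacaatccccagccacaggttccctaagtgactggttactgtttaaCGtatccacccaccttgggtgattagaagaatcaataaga
NKX6-1, a homeobox factor of beta cells and pancreatic progenitors, was open in HPAF-II only, and its human window is dense in CpGs.
NKX6-1, human, hg38 chr4:84499293-84499542, minus strand: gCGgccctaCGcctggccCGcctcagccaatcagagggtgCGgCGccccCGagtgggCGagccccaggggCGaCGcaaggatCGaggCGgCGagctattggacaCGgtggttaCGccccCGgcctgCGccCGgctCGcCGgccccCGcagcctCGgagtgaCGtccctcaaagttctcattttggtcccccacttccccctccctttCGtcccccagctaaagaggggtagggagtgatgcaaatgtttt
Nkx6-1, mouse, mm10 chr5:101664997-101665246, minus strand: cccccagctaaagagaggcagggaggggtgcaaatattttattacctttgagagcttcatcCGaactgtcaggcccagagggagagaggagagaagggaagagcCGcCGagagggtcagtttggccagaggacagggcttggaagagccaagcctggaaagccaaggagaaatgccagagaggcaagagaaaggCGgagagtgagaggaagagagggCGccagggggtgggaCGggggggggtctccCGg
GPX2, a glutathione peroxidase of gut epithelium, was also open in HPAF-II only but is CpG-poor in both species.
GPX2, human, hg38 chr14:64942747-64942996, minus strand: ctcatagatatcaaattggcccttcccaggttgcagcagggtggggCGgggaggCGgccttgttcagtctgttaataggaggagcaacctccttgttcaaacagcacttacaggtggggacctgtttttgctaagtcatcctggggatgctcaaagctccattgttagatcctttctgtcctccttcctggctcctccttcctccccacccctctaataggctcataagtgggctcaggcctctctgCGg
Gpx2, mouse, mm10 chr12:76795555-76795804, minus strand: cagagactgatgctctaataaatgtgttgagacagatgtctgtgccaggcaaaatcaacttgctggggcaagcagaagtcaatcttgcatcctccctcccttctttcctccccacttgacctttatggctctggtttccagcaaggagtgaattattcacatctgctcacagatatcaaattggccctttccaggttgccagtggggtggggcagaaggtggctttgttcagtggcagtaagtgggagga
GATA5, a zinc finger factor of endoderm and heart, was open in KPC only, and its mouse window is dense in CpGs.
Gata5, mouse, mm10 chr2:180334700-180334949, minus strand: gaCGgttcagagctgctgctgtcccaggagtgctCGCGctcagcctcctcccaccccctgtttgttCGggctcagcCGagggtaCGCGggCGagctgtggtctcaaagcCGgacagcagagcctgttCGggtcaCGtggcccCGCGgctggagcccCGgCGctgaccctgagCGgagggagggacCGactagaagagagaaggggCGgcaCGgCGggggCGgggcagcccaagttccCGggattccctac
The windows hold 8 and 1 CpGs for HNF4A in human and mouse, 23 and 7 for NKX6-1, and 3 and 0 for GPX2, and the mouse window of GATA5 holds 22. In every species where the gene was called open, all 250 bases lay inside its strongest promoter region. The windows were placed by the gene record of each species, so the human and mouse stretches need not match. The start of the mouse NKX6-1 window resembles the end of the human window. For GPX2, the end of the mouse window resembles the start of the human window. Their CpG counts are thus of different stretches and show no gain or loss between species.

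Most genes were in the same state in both species. Of the 15725 genes, 10512 (66.8%, 66.1 to 67.6) were open in both and 2431 (15.5%, 14.9 to 16.0) in neither. Another 2186 (13.9%, 13.4 to 14.5) were open in HPAF-II only and 596 (3.79%, 3.50 to 4.10) in KPC only. The ratio of the one-species classes, 3.67 HPAF-II-only genes for each KPC-only gene, depended on the list sizes and on the annotation. With the strongest 60000 regions of each list, the counts were 1604 and 1127. With 1 start site a gene, the 5′ end of the gene record, they were 2075 and 1182. With both choices together, an alternative added after the data had been seen, the order turned, with 1524 genes open in HPAF-II only and 1739 in KPC only. No excess of either species is therefore read from these counts, and the class of a single gene also depended on such choices. Under all of 11 alternatives in distance, score, list size, start sites, region width and choice of list, 601 of the 2186 HPAF-II-only genes (27.5%) and 139 of the 596 KPC-only genes (23.3%) kept their class. The same held for 6925 of the genes open in both (65.9%) and 1825 of those open in neither (75.1%).

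**Figure D1:**
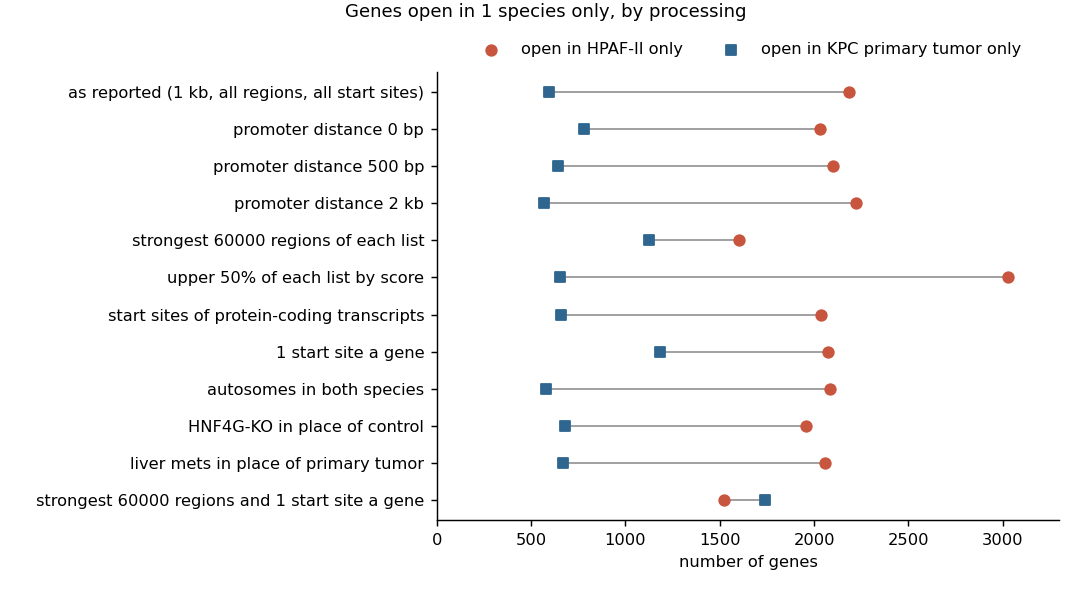
Number of genes open in HPAF-II control only (circles) and in KPC primary tumor only (squares) on the horizontal axis, for the reported settings and for each alternative on the vertical axis. The circle lies to the right in every row except the last, where lists of 60000 regions and 1 start site a gene give 1524 and 1739.

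The HNF4G-KO and liver mets lists, which the classes did not use, showed most one-species genes in the same state. Of the HPAF-II-only genes, 1894 (86.6%, 85.2 to 88.0) were also open in HNF4G-KO cells and 275 (12.6%, 11.3 to 14.0) in liver mets cells. Of the KPC-only genes, 547 (91.8%, 89.3 to 93.7) were open in liver mets cells and 36 (6.04%, 4.39 to 8.25) in HNF4G-KO cells. Over all genes, 78.7% were open in HNF4G-KO cells and 71.9% in liver mets cells. The promoter state was the same for 96.8% of genes between control and HNF4G-KO, for 96.2% between primary tumor and mets, and for 82.3% between control and primary tumor. Over the 10254 genes open in all 4 lists, Spearman's rho of the promoter percentile was 0.929 between control and HNF4G-KO, 0.925 between primary tumor and mets, and 0.484 between control and primary tumor. These values are across genes, which are not independent replicates, lists of 1 species share their annotation, and the pairs have lists in common.

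The stronger a promoter was in one species, the more often it was open in the other. Of the genes closed in HPAF-II, 19.7% (18.3 to 21.1) were open in KPC. The share was 31.9% (27.7 to 36.5) for genes with an HPAF-II percentile up to 20, 64.3% (61.5 to 67.1) between 40 and 60, and 94.7% (93.7 to 95.5) above 95. In the other direction, 47.3% (45.9 to 48.8) of genes closed in KPC were open in HPAF-II. That share was 80.2% (76.4 to 83.5) at a KPC percentile up to 20 and 98.4% (97.4 to 99.0) above 95. The intervals of neighboring bins overlapped between percentiles 80 and 95 in HPAF-II and above percentile 80 in KPC.

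**Figure D2:**
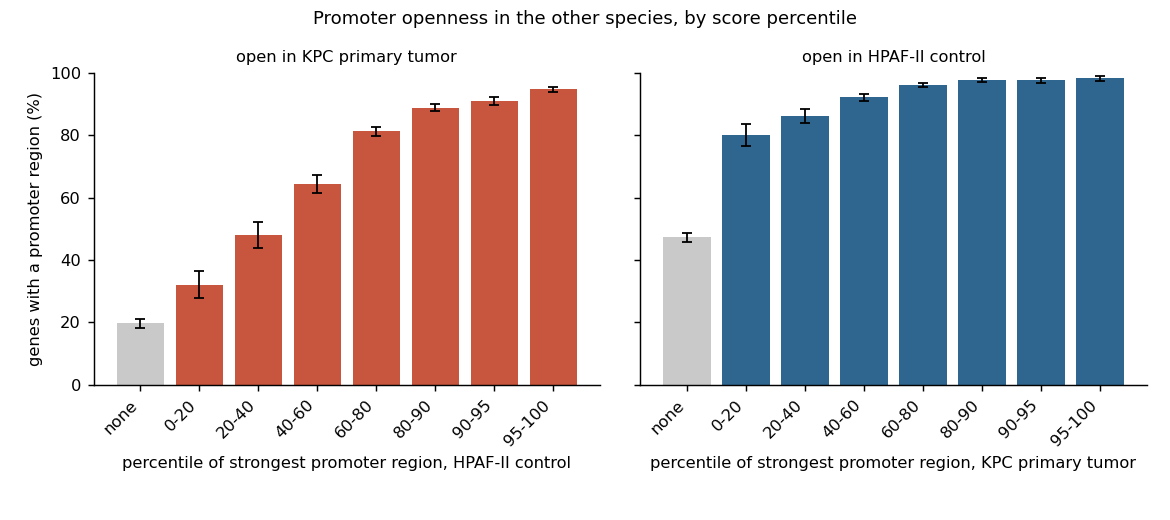
Percentage of genes with a promoter region in the other species (vertical axis), by the score percentile of the gene's strongest promoter region (horizontal axis, none for closed genes) in HPAF-II control (left) and KPC primary tumor (right). Bars are shares with Wilson 95% intervals, and they climb from 19.7% to 94.7% on the left and from 47.3% to 98.4% on the right.

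Among the 10512 genes open in both, the median percentile was 87.1 in HPAF-II and 75.4 in KPC, and 7796 genes (74.2%) were higher in HPAF-II. This share moved with list size and was 55.0% with the strongest 60000 regions of each list. Spearman's rho across genes was 0.492 and Pearson's r 0.424. A group of 1582 genes lay above percentile 90 in both lists, of 4310 in HPAF-II and 2204 in KPC. The strongest in both were GOLPH3L (percentile 99.97 in HPAF-II and 99.99 in KPC), TCTN3 (99.95 and 99.94), ARMC1 (99.91 and 99.87), DESI2 (99.87 and 99.90) and ZFYVE1 (99.98 and 99.86). TCTN3 encodes a protein of the ciliary transition zone and GOLPH3L a Golgi protein. None of these 5 changed class under any alternative.

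Other genes open in both differed widely in rank. RAB40B, a small GTPase gene, was at percentile 97.8 in HPAF-II and 1.03 in KPC. The carbonyl reductase gene CBR1 was at 97.6 and 2.34, COX6B2 (a testis form of a cytochrome oxidase subunit) at 97.0 and 2.42, the chromatin reader gene L3MBTL1 at 97.3 and 3.86, and the glycine decarboxylase gene GLDC at 95.1 and 3.03. In the other direction, DNHD1 was at 1.13 in HPAF-II and 97.5 in KPC. FAM3B, which encodes a secreted protein of islets, was at 2.09 and 91.7, the piRNA pathway gene TDRD9 at 6.42 and 94.2, TPSG1 (a tryptase) at 6.42 and 91.8, and DDT (D-dopachrome tautomerase) at 8.12 and 91.3. With the strongest 60000 regions of each list, all 10 were open in 1 species only, the first 5 in HPAF-II and the last 5 in KPC.

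The 10 strongest HPAF-II-only promoters ranged from percentile 99.6 to 99.9. They included TMEM45A (99.9), a transmembrane protein gene, WASF3 (99.8), a regulator of actin, and CYP2R1 (99.8), a vitamin D 25-hydroxylase. They also included NXPE2 (99.8), HS3ST3B1 (99.6), which modifies heparan sulfate, and SLC30A10 (99.6), a manganese exporter. CAPS2 and GLIPR1L2 shared 1 region at 99.7. The strongest region of PROS1 (99.7), the anticoagulant protein S gene, also lay within 1 kb of another gene's start, and that of KCTD16 (99.6) near YIPF5. All 10 were open in HNF4G-KO cells at percentiles from 97.0 to 99.8, and PROS1 was the only one open in liver mets cells, at 19.7. TMEM45A, NXPE2, WASF3, CYP2R1, CAPS2, GLIPR1L2 and HS3ST3B1 kept their class under every alternative.

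The 10 strongest KPC-only promoters ranged from percentile 96.9 to 99.9. ENTPD1 (99.9), the gene of the ectonucleotidase CD39, shared its region with TCTN3, which was open in both species. SLC2A2, the glucose transporter GLUT2 of hepatocytes and beta cells, was at 98.6 in KPC and at 97.1 in liver mets. In HPAF-II it was closed at 1 kb but open at 2 kb, and in HNF4G-KO cells it was open at 87.3. At a distance of 0 bp, SLC2A2 was closed in both species. The same held with start sites of protein-coding transcripts and with 1 start site a gene. The others were HEPACAM2 (98.3, region shared with VPS50), the complement receptor gene C3AR1 (98.1), the glutathione transferase gene GSTM5 (98.1), the sorting nexin gene SNX32 (98.0), TOMT (97.4, region shared with LAMTOR1), the phosphodiesterase gene PDE6C (97.1), ECHDC3 (97.1) and R3HDML (96.9). PDE6C and R3HDML had no region within 500 bp of a start in either species, and HEPACAM2 and SNX32 were open in both at 2 kb. All 10 were open in liver mets cells, at 89.1 to 99.98. ENTPD1, C3AR1, GSTM5, TOMT and ECHDC3 kept their class under every alternative. Over each class, the strongest region was also within 1 kb of another coding gene's start for 10.7% of HPAF-II-only and 9.73% of KPC-only genes.

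The factors at the center of the study (HNF4G, HNF4A, FOXA1, GATA6 and PRMT1) were read together with MYC and with FOXA and GATA relatives. Those of the study were chosen for these cells, so their state is not independent evidence. Of the 10 genes, 9 were open in both, against 66.8% of all genes. HNF4A was at percentile 95.6 in HPAF-II and 93.7 in KPC, and HNF4G, its paralog and the gene removed in the knockout cells, was at 82.4 and 69.1. HNF4G was still listed as open in HNF4G-KO cells, at 82.7. The forkhead pioneer factors FOXA1, FOXA2 and FOXA3 were at 89.8, 88.6 and 86.6 in HPAF-II against 69.2, 33.8 and 73.0 in KPC. GATA6 was at 76.0 and 58.8, MYC at 70.6 and 41.3, and the arginine methyltransferase gene PRMT1 at 92.7 and 90.01. GATA4 was at 6.42 in HPAF-II and 46.2 in KPC, and its HPAF-II region was absent from the HNF4G-KO list and from the strongest 60000 regions. GATA5 was open in KPC only, at 59.5, and at 57.9 in liver mets, under every alternative.

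Of 26 pancreas lineage factors, 9 were open in both, 7 in HPAF-II only, 2 in KPC only and 8 in neither. Shares over all genes were 66.8%, 13.9%, 3.79% and 15.5%. PDX1, the master regulator of pancreas formation, was at 92.6 in HPAF-II and 78.0 in KPC, and the ductal and progenitor factor SOX9 at 85.4 and 55.4. ONECUT2 was at 87.8 and 30.4, MNX1 at 76.2 and 28.6, HES1, a Notch target, at 65.3 and 29.7, GLIS3 at 69.6 and 26.4, MAFA at 81.9 and 82.6, and the acinar factor BHLHA15 at 49.7 and 2.42.

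The HPAF-II-only lineage factors included the islet factors NKX6-1, ISL1 and PAX6. NKX6-1 was at 88.4, MEIS1 at 78.3, ISL1 at 74.7, PAX6 at 68.7, PROX1 at 48.7 and ONECUT1 at 19.97. All 7 of the class were open in HNF4G-KO cells. NKX6-1 and ISL1 were closed in both KPC lists and kept their class under every alternative. MEIS1 and ONECUT1 were open in liver mets cells, at 57.8 and 29.7. With the strongest 60000 regions, ONECUT1 and PROX1 were closed in both species. With 1 start site a gene, ONECUT1, PROX1 and PAX6 were closed in both species. RBPJL, the acinar partner of PTF1A, was open in KPC only, at 51.9. It was closed in both HPAF-II lists at 1 kb, though open in HPAF-II at 2 kb. PTF1A, NEUROG3, NEUROD1, NKX2-2, PAX4, INSM1 and NR5A2 were open in neither species, and NR5A2 was open at 9.90 in HNF4G-KO cells.

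**Figure D3:**
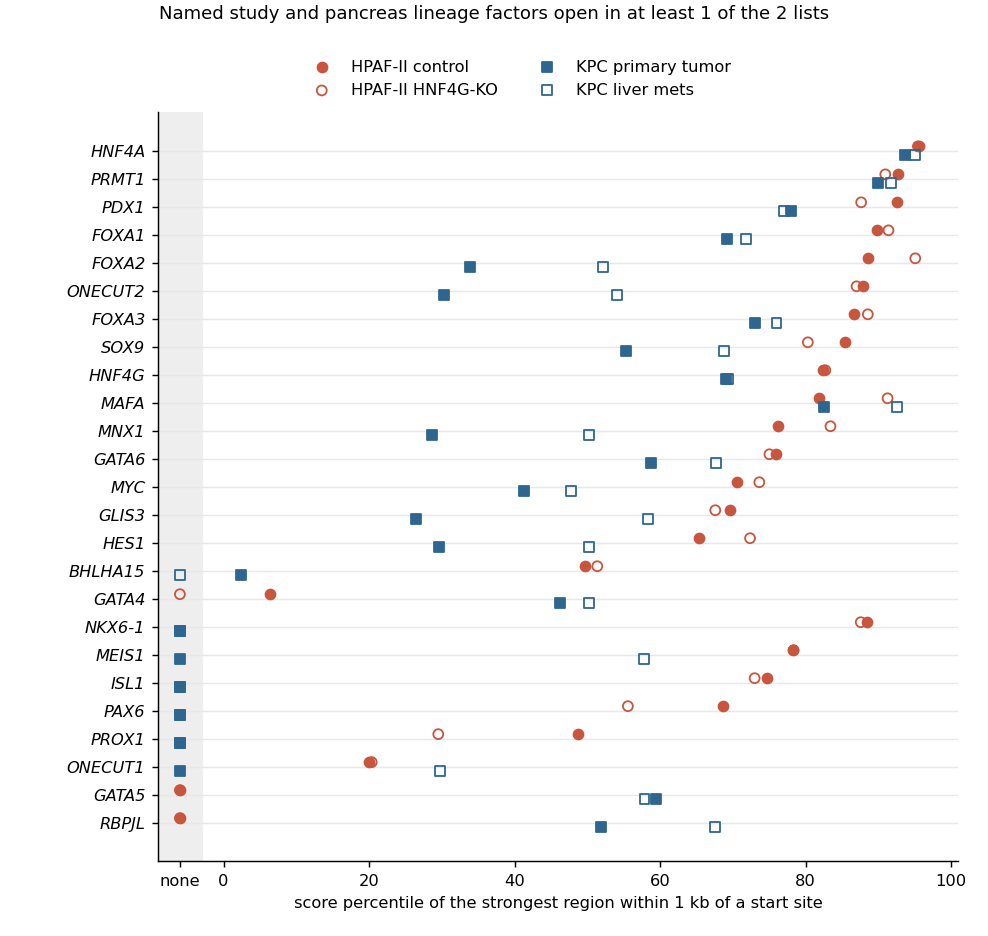
Score percentile of the strongest region within 1 kb of a start site (horizontal axis, none for closed promoters) for study and pancreas lineage factors named in the text (vertical axis) in HPAF-II control and HNF4G-KO (filled and open circles) and KPC primary tumor and liver mets (filled and open squares). HNF4A and PRMT1 are above 90 in all 4 lists, NKX6-1 and ISL1 have no KPC region, and GATA5 and RBPJL have no HPAF-II region.

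All 18 pancreatic cancer driver genes were open in both species, against 66.8% of all genes, with a median percentile of 93.3 in HPAF-II and 74.1 in KPC, against 84.97 and 74.4 over all open genes. CDKN2A was at 90.9 and 54.6, SMAD4 at 86.6 and 67.8, the DNA damage kinase gene ATM at 99.0 and 95.7, and RNF43, a brake on WNT signaling, at 98.9 and 91.9. ARID1A, a subunit of the SWI/SNF remodeler, was at 99.1 and 50.8, ACVR1B at 65.0 and 62.4, and GNAS at 52.8 and 63.9. BRCA1 was at 96.0 and 97.5, BRCA2 at 92.1 and 70.6, PALB2 at 92.8 and 88.7, KDM6A at 93.8 and 87.6, RBM10 at 97.3 and 91.5, and SF3B1 at 95.2 and 80.9. The list also held MAP2K4 (77.0 and 71.5), PBRM1 (75.5 and 35.2), STK11 (89.0 and 89.4) and TGFBR2 (97.9 and 76.7). Of the 18, 15 kept their class under every alternative.

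Sets of genes that nearly every cell uses were also open in both. All 36 genes of respiratory complex I, 77 of 80 ribosomal protein genes, 45 of 48 proteasome genes and 15 of 16 glycolysis genes were in that class, which held 66.8% of all genes. The exceptions included PSMB8, an interferon-induced subunit of the immunoproteasome, which was open in HPAF-II only under every alternative, and LDHB, the heart form of lactate dehydrogenase, which was open in HPAF-II only. Median percentiles for complex I were 93.1 in HPAF-II and 79.4 in KPC.

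The HOX genes were the list with no gene open in both. HOX genes encode homeobox factors that set position along the body axis, and they lie in 4 clusters. Of 39, 20 were open in HPAF-II only, 1 in KPC only (HOXA7, at 27.8) and 18 in neither, against 13.9%, 3.79% and 15.5% over all genes. The HPAF-II-only genes lay in all 4 clusters. The highest were HOXC5 (90.7), HOXC4 (90.2) and HOXA10 (84.6), and HOXC6 and HOXC9 shared a region at 81.8. HOXA9 was at 75.7, HOXB9 and HOXC13 at 74.5, HOXA6 at 69.9, HOXA13 and HOXB8 at 65.6, and the lowest were HOXD1 (21.2) and HOXC8 (10.4). Of the 39 genes, 37 had the same class in HNF4G-KO and liver mets cells. The exceptions were HOXA2, closed in HNF4G-KO cells, and HOXA10, open in liver mets cells at 12.02. With lists of 60000 regions and 1 start site a gene, where KPC-only genes outnumbered HPAF-II-only genes over the whole set, 10 HOX genes were open in HPAF-II only and 1 in KPC only. These were 25.6% and 2.56% of HOX genes, against 9.69% and 11.1% of all genes. HOXB9, HOXC4, HOXC5, HOXC9, HOXC10, HOXC13 and HOXD3 kept their class under every alternative. Distal regions within 50 kb were also fewer in KPC, with a median of 6 per HOX gene in HPAF-II and 1 in KPC, against 5 and 4 over all genes. Genes of 1 cluster share these windows.

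Of 31 ductal and epithelial genes, 25 (80.6%) were open in both, 4 in HPAF-II only, 2 in KPC only and 0 in neither, against 66.8%, 13.9%, 3.79% and 15.5% of all genes. The 27 members open in KPC had a median percentile of 38.7 there, against 74.4 for all genes open in KPC, and the 29 open in HPAF-II had one of 78.4, against 84.97. The grainyhead genes GRHL1 (90.5 in HPAF-II and 99.1 in KPC) and GRHL2 (93.5 and 71.6) and the ETS factor gene ELF3 (75.6 and 81.8) were high in both. The members open in both with the lowest KPC percentiles, named after the values were seen, were the repressor genes OVOL1 (73.9 in HPAF-II and 0.0558 in KPC) and OVOL2 (77.2 and 2.51) and the splicing factor gene ESRP1 (78.1 and 1.12), and these 3 were closed in liver mets cells. The other epithelial splicing factor gene, ESRP2, was at 72.3 and 31.04 and open in liver mets cells at 40.3. With the upper 50% of each list, 7 genes were open in both and 21 in HPAF-II only, against 52.6% and 19.3% of all genes. The HPAF-II-only genes were the tight junction genes CLDN3 (95.1), CLDN4 (78.4) and CLDN7 (65.0) and the protease inhibitor gene SPINT1 (89.1), and of these CLDN3 and SPINT1 were open in liver mets cells. The KPC-only genes were the chloride channel gene CFTR (57.4), which had no region within 500 bp of a start, and SPP1 (74.7), which encodes osteopontin and was open in HPAF-II at 2 kb. CFTR and SPP1 were open in liver mets cells, at 64.7 and 82.1, and in neither HPAF-II list.

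The classical subtype list, genes of the gut-like epithelial program, had 12 of 29 members open in both, 12 in HPAF-II only, 0 in KPC only and 5 in neither. Of all genes, 66.8% were open in both, 13.9% in HPAF-II only, 3.79% in KPC only and 15.5% in neither. Open in both were LGALS4 (98.1 in HPAF-II and 54.4 in KPC), the intestinal factor gene CDX2 (86.8 and 59.3), SLC40A1 (85.4 and 79.8), CTSE (79.7 and 66.2), TFF1 (74.0 and 41.1) and CLDN18 (12.5 and 27.0). The HPAF-II-only genes included ATP10B (92.1), ERN2 (84.7), AGR2 (84.5), GPX2 (81.8), CDH17 (77.3) and SPDEF (74.0), of which AGR2, ERN2 and SPDEF act in mucus production. This split rested on the start sites: with 1 start site a gene, 7 were open in HPAF-II only and 4 in KPC only, and with equal lists as well there were 5 of each. Over all genes, the shares were 13.2% and 7.52% with 1 start site a gene, and 9.69% and 11.1% with equal lists as well. GPX2, MYO1A, SPDEF and ST6GALNAC1 were HPAF-II-only under every alternative. AGR2 and CDH17 were open in liver mets cells, at 9.21 and 11.4.

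The basal subtype list, genes of squamous-like tumors, had 13 of 28 open in both (46.4%, against 66.8% of all genes) and 10 in HPAF-II only (35.7%, against 13.9%). The 1 member in KPC only (3.57%, against 3.79%) and the 4 in neither (14.3%, against 15.5%) were near the shares over all genes. FAM83A (93.5), LEMD1 (91.4) and KRT15 (81.3) were among the strongest HPAF-II-only members, and KRT14 (49.95) was the KPC-only member. The laminin genes LAMA3 (98.5 and 18.1) and LAMB3 (71.1 and 31.7) were open in both, each with the higher percentile in HPAF-II. That direction was shared by 74.2% of all genes open in both. Of the 13 members open in both, only SCEL was higher in KPC (79.6 in HPAF-II and 95.4 in KPC). FAM83A and KRT15 kept their class under every alternative, and with equal lists and 1 start site a gene 7 members were open in HPAF-II only and 1 in KPC only.

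Mucin genes encode the glycoproteins of mucus and of the epithelial surface. Of 11, only MUC1 was open in both (85.1 in HPAF-II and 28.6 in KPC), 7 were open in HPAF-II only and 3 (MUC2, MUC5AC and MUC15) in neither. The shares in both and in HPAF-II only were 9.09% and 63.6%, against 66.8% and 13.9% over all genes. The HPAF-II-only genes were MUC16 (91.6), which encodes CA125, MUC20 (88.4), MUC3A (82.4), MUC13 (75.9), MUC4 (66.9), MUC6 (47.1) and MUC5B (41.2). Of these, MUC5B was open in liver mets cells, at 29.2. MUC3A, MUC4, MUC16 and MUC20 kept their class under every alternative, and with equal lists and 1 start site a gene these 4 were left as HPAF-II-only mucins, with 0 in KPC only. The 4 were 36.4% of the mucins, against 9.69% of all genes in HPAF-II only and 11.1% in KPC only. MUC4 was flanked by 20 distal regions in HPAF-II and 13 in KPC, although its KPC promoter was closed.

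The claudin family had 5 of 22 members open in both, 8 in HPAF-II only and 1 (CLDN5, an endothelial claudin, at 11.6) in KPC only, or 22.7%, 36.4% and 4.55%, against 66.8%, 13.9% and 3.79% of all genes. CLDN12 (98.1 and 86.7) and CLDN23 (91.6 and 80.5) were high in both, and CLDN3, CLDN2 (83.2), CLDN4 and CLDN16 (73.4) led the HPAF-II-only members. CLDN3 was open in liver mets cells, at 55.5. CLDN2 was closed in both species with 1 start site a gene and open in both at 2 kb. CLDN16 had the HPAF-II percentile of CLDN1, which was open in both. With start sites of protein-coding transcripts, CLDN16 was closed in both species. With equal lists and 1 start site a gene the one-species counts were 6 and 2, or 27.3% and 9.09%, against 9.69% and 11.1% of all genes. Of 49 keratin genes, 29 were open in neither, 11 in both, 3 in HPAF-II only and 6 in KPC only, and the share in neither was 59.2%, against 15.5% of all genes. The KPC-only keratins included KRT13 (79.9), KRT33A (78.1), KRT10 (73.0) and KRT14, and none of the 6 kept the class under every alternative.

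Of 22 mesenchymal genes, 10 (45.5%) were open in both, against 66.8% of all genes. Each of the other classes held 4 (18.2%), against 13.9% of all genes in HPAF-II only, 3.79% in KPC only and 15.5% in neither. The transcription factor genes SNAI1 (81.9 and 85.2), SNAI2 (70.6 and 79.5) and ZEB1 (78.9 and 32.5), and VIM (76.3 and 55.9), which encodes vimentin, were open in both. TCF4 was at 33.0 in HPAF-II and 90.3 in KPC. The KPC-only genes were COL5A1 (51.5), ZEB2 (51.0), GREM1 (27.5) and TWIST2 (19.6), each also open in liver mets cells. The HPAF-II-only genes were TGFBI (97.6), CDH11 (76.2), LOX (67.3) and SPARC (44.1). Of these, TGFBI and SPARC were open in liver mets cells, at 82.3 and 33.8, and CDH11 was closed in HNF4G-KO cells. LOX was the one member of the 8 one-species genes to keep its class under every alternative.

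Genes of other cells were counted in the same way, against 66.8% of all genes open in both, 13.9% in HPAF-II only, 3.79% in KPC only and 15.5% in neither. Of 20 acinar genes, 13 were open in neither, among them the digestive enzyme genes PRSS1, CPA1 and PNLIP, and 4 in HPAF-II only, 2 in both and 1 in KPC only. CTRL (76.3) and PLA2G1B (74.96) were the strongest HPAF-II-only acinar genes. Of 16 endocrine genes, 7 were open in HPAF-II only, 2 in both and 7 in neither, and the hormone genes GCG, SST and IAPP were closed in both. SYT13 (86.2) was the HPAF-II-only endocrine gene that kept its class under every alternative. With lists of 60000 regions, 2 endocrine genes were HPAF-II-only, a class that then held 10.2% of all genes. Of 13 hepatocyte markers, 9 were open in neither, 3 in HPAF-II only (CPS1 at 91.7, HPX at 60.4 and F2 at 58.3), 0 in KPC only and 1 in both (APOB, at 31.6 and 86.3). Fibroblast markers (14 genes) had 5 open in both, 4 in HPAF-II only and 5 in neither, with FAP (88.2) and PDGFRB (82.4) highest among the HPAF-II-only genes. With start sites of protein-coding transcripts, FAP, PDGFRB and CTRL were closed in both species. No HPAF-II-only acinar, hepatocyte or fibroblast gene kept its class under every alternative. Immune cell markers (20) had 4 open in both, 6 in HPAF-II only, 1 in KPC only (FOXP3, at 82.3) and 9 in neither. Endothelial markers (10) had 1, 2, 4 and 3 in the same order, and the KPC-only ones were PECAM1 (84.3), KDR (54.6), VWF (53.0) and CLDN5. KDR, which encodes the VEGF receptor, kept its class under every alternative. Neuronal markers (14) had 6, 3, 1 and 4. These cells were grown as lines, and an open promoter is not a transcript, so these counts do not show the presence of other cells.

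Promoter CpG content differed between the classes. A promoter was called CpG-rich where the observed number of CpGs in the 300 bases around the start (250 before and 50 after) was at least 0.6 of that expected from its C and G content, and 15709 genes had this window in both genomes. In human, 75.2% (74.3 to 76.0) of genes open in both were CpG-rich, against 41.9% of HPAF-II-only, 42.3% of KPC-only and 32.0% of closed genes. In mouse the shares were 69.5% (68.7 to 70.4), 27.4%, 34.2% and 21.6%. The median observed to expected ratio of human promoters was 0.807 in genes open in both, 0.476 in HPAF-II-only, 0.471 in KPC-only and 0.357 in closed genes. Where both species had a CpG-rich promoter, 85.7% of 7141 genes were open in both. Where neither had one, 32.6% of 4374 genes were open in both, 26.1% in HPAF-II only, 6.56% in KPC only and 34.8% in neither. The window stands at the 5′ end of the gene record, which need not be the open start. Among the 7 HOX genes that kept the HPAF-II-only class, the human and mouse ratios were 0.842 and 0.840 at HOXB9, 0.699 and 0.797 at HOXC10, 0.633 and 0.605 at HOXC13, 0.932 and 0.721 at HOXC9, and 0.792 and 0.745 at HOXD3. They were 0.934 and 0.338 at HOXC4 and 0.545 and 0.594 at HOXC5, so that HOXC4 was CpG-rich in human only and HOXC5 in neither.

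Distal regions, those over 1 kb from every annotated start, were counted within 50 kb of the start sites of each gene. The median was 5 in HPAF-II and 4 in KPC and the mean 6.15 and 4.35, and with the strongest 60000 regions of each list the order of the medians turned, to 2 and 3. Both species had at least 1 distal region at 13263 genes (84.3%), HPAF-II alone at 1758, KPC alone at 356 and neither at 348. Spearman's rho across genes was 0.413 between control and primary tumor, 0.917 between control and HNF4G-KO, and 0.9202 between primary tumor and mets. Longer genes with more start sites have a larger window, and neighboring genes share regions. Genes open in HPAF-II only had a median of 6 distal regions in HPAF-II and 2 in KPC, and genes open in KPC only had 5 and 4. As a multiple of each list's mean, HPAF-II-only genes had 1.09 times in HPAF-II and 0.673 times in KPC, and KPC-only genes 0.8801 and 1.07 times. No distal region was found in KPC at 28.0% of HPAF-II-only genes, against 5.33% of genes open in both. The share was 36.8% for genes open in neither and 13.4% over all genes.

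The genes richest in distal regions were partly shared. PDE4D, a cAMP phosphodiesterase gene, was first in both, with 52 distal regions in HPAF-II and 41 in KPC. LPP, a focal adhesion gene, had 47 and 33, and ASAP1, an ARF GTPase activator, 41 and 28. KALRN had 47 and 10, GSE1 41 and 16, ABLIM1 34 and 31, FRMD4A 15 and 31, and MECOM, the EVI1 proto-oncogene, 14 and 30. A set of 251 genes lay in the upper 5% of both lists, of 797 in HPAF-II and 688 in KPC, and it held the lineage factor GLIS3 (34 and 28). Genes were also ranked by distal count within each list. The largest differences in rank, which need not be the largest in count, were towards HPAF-II at RPS6KA2 (30 and 0), the potassium channel gene KCNMA1 (29 and 0), RBFOX3 (27 and 0), DGKB (26 and 0) and DOCK2 (26 and 0). The largest rank differences towards KPC were at CHCHD3 (0 and 12), the cytokine receptor kinase gene JAK2 (0 and 11), KRT26 (0 and 11), BTBD9 (1 and 18) and ESCO2 (1 and 14). The promoters of RPS6KA2, RBFOX3, CHCHD3, JAK2, BTBD9 and ESCO2 were nevertheless open in both species. With 1 start site a gene, RPS6KA2 was open in KPC only and RBFOX3 in neither species. CHCHD3, JAK2, BTBD9 and ESCO2 kept their class under every alternative. Among the study factors, GATA4 had 13 distal regions in HPAF-II and 15 in KPC, HNF4A 10 and 9, HNF4G 7 and 3, and GATA5 15 and 9, although the human GATA5 promoter was closed.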

How the data were processed

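Omni-ATAC-seq was performed on 16 samples, 4 replicates in each of 4 groups assigned from the sample titles. The deposited files were 4 region lists in BED format, 1 per group, and the authors gave every region a score whose scale is not stated. The submitters' processing notes name Bowtie2 2.2.6, MACS2 2.1.1.20160309 and DiffBind, with no order or role, and hg38 and mm10, and all regions ended inside these chromosomes. For ChIP-seq, the methods of the study describe calling regions on the merged reads of all replicates. How the authors combined replicates for ATAC-seq is not given in the sources used here. Read depth is unknown, and depth bears on how many weak regions a list holds.

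Start sites were those of GENCODE release 44 (human) and vM21 (mouse). Symbols that matched more than 1 gene (31) were left out, and 12 mitochondrial genes count as closed, since no list holds that chromosome. The per-gene functions were checked on simulated data. Python 3.11.15, numpy 2.4.6, scipy 1.17.1 and matplotlib 3.10.9 were used.

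The genes, lists and settings were chosen with earlier results of these data known, and the gene lists were written from memory. Named genes were all study, lineage and driver factors, the 10 strongest of each one-species class, the 5 strongest and 5 most different genes open in both, the 5 extremes of distal count and of its rank difference, and up to 4 members per one-species class of each list. Other list members were named after their values were seen. Some genes under this rule are counted in their lists but not reported here by name. With 1 list a group no test was run. Sequences came from hg38 and GRCm38.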

Additional observations from a re-analysis of the deposited data

How the results depend on the processing

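No paired analysis was possible because each group has 1 list for its 4 replicates, and no replicate could be left out for the same reason. Of 263 values compared with an alternative that answer a comparison, 197 stayed within 1.5 times of the count or inside the interval of the share, and 66 did not. Alternatives with the strongest 60000 regions gave 1127 KPC-only genes, 55.0% of shared genes higher in HPAF-II, 75.2% of genes with distal regions in both species, 45.5% of HPAF-II-only promoters CpG-rich, 2 endocrine and 7 ductal genes HPAF-II-only, and 2 classical genes KPC-only. With 1 start site a gene the values were 1182, 72.3%, 80.3% and 50.4%, with 3 endocrine and 7 classical genes HPAF-II-only, 4 ductal and 4 classical genes KPC-only, and 7 classical genes open in both. With both choices, chosen after seeing the data, they were 1739, 53.5%, 68.5% and 56.4%, with 4222 genes open in neither. The lists then held 1 endocrine, 7 ductal, 5 classical, 10 HOX and 4 mucin genes HPAF-II-only, 4 ductal and 5 classical genes KPC-only, and 5 classical genes open in both. The upper 50% of each list left 3780 genes in neither, 73.2% higher in HPAF-II, 63.3% with distal regions in both and 55.9% CpG-rich. Open in both were 1 endocrine, 7 ductal, 6 classical and 0 mucin genes, HPAF-II-only were 2 endocrine and 21 ductal genes, and 0 HOX genes were KPC-only. At a distance of 0 bp, 46.6% of HPAF-II-only promoters were CpG-rich, 1 endocrine gene was open in both, 3 endocrine and 8 ductal genes were HPAF-II-only, and 1 ductal and 1 classical gene were KPC-only. At 500 bp the last 2 counts were also 1 and 1, with 4 endocrine genes HPAF-II-only. At 2 kb they were 1 and 1 again, with 4 endocrine and 2 HOX genes open in both. Start sites of protein-coding transcripts gave 82.3% with distal regions in both and 1 classical gene KPC-only, and autosomes gave 85.5%. Distal windows of 25 kb and 100 kb gave 69.6% and 91.6%. HNF4G-KO in place of control gave 73.2% higher in HPAF-II, 83.2% with distal regions in both, 4 endocrine genes HPAF-II-only and 1 classical gene KPC-only. Liver mets in place of primary tumor gave 69.9% and 88.2%, with 1 HOX and 2 mucin genes open in both. Regions of 100 bp or wider changed no class. Spearman's rho of the promoter percentile stayed between 0.427 and 0.516 over all alternatives. Of 247 genes chosen by the naming rule, 92 kept their class under every alternative. The order of the one-species counts turned with lists of 60000 regions and 1 start site a gene, for all genes and also, as HPAF-II-only and KPC-only genes, for collagen (8 and 10), FOX (5 and 6), KLF (1 and 4), integrin (3 and 6), nuclear receptor (3 and 9), glycolysis (0 and 2) and ribosomal protein genes (1 and 8), and the cause was not tested.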

Other observations

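Counts of other gene families are given in the order both, HPAF-II only, KPC only and neither, which held 66.8%, 13.9%, 3.79% and 15.5% of all genes. The share open in both was near that of all genes for nuclear receptor (71.7%), Krueppel-like factor (70.6%) and integrin genes (63.3%). Forkhead genes had 20, 7, 2 and 15 of 44 and Krueppel-like factor genes 12, 2, 1 and 2 of 17. SOX genes had 5, 5, 1 and 8 of 19. The stem cell factor gene SOX2 was open in HPAF-II at percentile 77.2 and closed in the KPC primary tumor list, but open in liver mets cells at 24.9. SOX6 was open in both at 97.4 and 56.9, with 14 distal regions in HPAF-II and 0 in KPC. Nuclear receptor genes had 33, 4, 2 and 7 of 46. RORB, a retinoid-related orphan receptor gene, was open in KPC only at 80.4 and kept that class under every alternative. The bile acid receptor gene NR1H4 was at 6.99 in HPAF-II and 71.8 in KPC, and the estrogen receptor gene ESR2 at 99.4 and 22.4. Integrin genes had 19, 4, 3 and 4 of 30, collagen genes 14, 13, 4 and 12 of 43, classical cadherin genes 5, 6, 2 and 10 of 23, and protocadherin genes 1, 4, 0 and 6 of 11.

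Chemokine genes had 6, 10, 4 and 7 of 27. CXCL10, an interferon-induced T cell attractant, was open in KPC only at 82.1, whereas its neighbor CXCL9 was open in HPAF-II only at 93.8, and both kept their class under every alternative. Potassium channel genes had 18, 29, 7 and 38 of 92, with KCNMA1 (97.9), KCNS3 (97.6) and KCNAB2 (97.1) the strongest in HPAF-II only. KCNMA1 was closed when only start sites of protein-coding transcripts were read. With lists of 60000 regions and 1 start site a gene, 9 were open in HPAF-II only and 7 in KPC only. These were 9.78% and 7.61%, against 9.69% and 11.1% of all genes. Ionotropic glutamate receptor genes had 3, 4, 2 and 9 of 18. Germline genes had 2, 9, 1 and 7 of 19, and the 9 included PIWIL1 (99.2), TEX15 (98.0) and ZP3 (93.5). TEX15 and ZP3 kept that class under every alternative.

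Genes on the human X chromosome were less often open in both than all genes, with 279 of 568 (49.1%) in that class and 172 (30.3%) in neither, against 66.8% and 15.5%. Genes without a partner of the same symbol were also less often open. Of 4278 such human genes, 53.1% were open in HPAF-II, against 80.8% of the matched genes, and of 6175 such mouse genes, 25.4% were open in KPC, against 70.6%.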
